A study of Mus musculus with 16 samples.

Results

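The cytosolic heat shock response genes are a set of 10 genes: Hspa1a, Hspa1b, Hspa8, Hsph1, Hsp90aa1, Hsp90ab1, Dnajb1, Hspb1, Bag3 and their regulator Hsf1. They were chosen by name, with no threshold on a measured value but with earlier results of these data known, and were read from the 10 rows of a table of 55471 genes whose identifiers carry these symbols. All 10 passed the filter on low counts, which kept 14331 genes. Bulk RNA-seq had been performed on skeletal muscle of 16 male mice fed a HFD (60% kcal from lipids) for 12 weeks, and each library is 1 mouse with 15273472 to 59682677 counted fragments. Of these, 10 are labelled Npr1+/- and 6 are labelled Npr1+/+, their littermate controls, and the mice were spread over 4 cages. The line is B6.129-Npr1tm1Gar/J, backcrossed to C57BL/6J for at least 10 generations, and mice of both labels were 12 weeks old at the start. Loss of 1 Npr1 copy is body-wide in this line and not restricted to muscle, and the labels do not name which muscle was taken.

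Heat shock proteins are chaperones that hold, refold or hand over unfolded proteins. Under stress, the transcription factor HSF1 is released from chaperones, forms trimers and binds heat shock elements, which are repeats of a short unit in alternating orientation, upstream of chaperone genes. Some members of the family are made mainly after stress, whereas others are expressed in unstressed cells at all times. In skeletal muscle, contraction, heat and protein damage induce them, and the chaperone pathway around BAG3 clears damaged filamin from the Z-disc.

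The stretch upstream of the start site is shown for 3 genes of the set, because Hspa1a and Hspa1b are near-identical copies with the lowest levels here and Hspb1 is an abundant gene of the set with the same element. RefSeq windows of GRCm38.p6 were matched for 6 of the 10 genes, namely Hspa1a, Hspa1b, Hsph1, Dnajb1, Hspb1 and Bag3. The 250 bases before the start are printed in the direction of transcription, and capitals mark each two-unit heat shock element, GAANNTTC. They lie at chr17:34972157-34972406 on the minus strand for Hspa1a, at chr17:34959239-34959488 on the minus strand for Hspa1b, and at chr5:135887669-135887918 on the plus strand for Hspb1.
Hspa1a: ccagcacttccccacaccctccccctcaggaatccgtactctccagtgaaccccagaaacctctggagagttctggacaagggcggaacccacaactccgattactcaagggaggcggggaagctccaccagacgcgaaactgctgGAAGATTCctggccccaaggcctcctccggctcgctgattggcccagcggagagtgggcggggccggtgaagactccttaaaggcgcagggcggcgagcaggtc
Hspa1b: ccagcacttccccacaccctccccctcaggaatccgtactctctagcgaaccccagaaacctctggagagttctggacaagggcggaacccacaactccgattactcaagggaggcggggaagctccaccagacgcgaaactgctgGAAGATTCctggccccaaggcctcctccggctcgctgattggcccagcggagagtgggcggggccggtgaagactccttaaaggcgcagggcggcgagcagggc
Hspb1: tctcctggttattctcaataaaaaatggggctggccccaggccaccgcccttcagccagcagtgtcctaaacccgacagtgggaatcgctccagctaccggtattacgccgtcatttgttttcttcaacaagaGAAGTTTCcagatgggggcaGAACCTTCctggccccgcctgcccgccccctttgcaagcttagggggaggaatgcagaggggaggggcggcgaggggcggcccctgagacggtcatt
The windows of Hspa1a and Hspa1b differed at 3 of 250 positions, and both held GAAGATTC from 104 to 97 bases before the start. Hspb1 held GAAGTTTC from 117 to 110 and GAACCTTC from 97 to 90 bases before the start. Hsph1, with the window of its first start site, held the element in the other phase, TTCNNGAA, as TTCTCGAA from 33 to 26 bases before the start. Neither phase was found in the windows of Dnajb1 and Bag3, and no window of the 6 genes held a three-unit element, in which a further unit follows at the same spacing. Both strands were searched, and a three-unit element contains two-unit ones. Thus 4 of 6 genes held a two-unit element in the 250 bases, against 12.9% of all 32536 windows of the same length, of which 0.47% held a three-unit element. Hspa1a and Hspa1b are near-identical copies with the same element, so they do not count as separate cases. Hsph1 and Dnajb1 had 2 windows each, whereas the background share is per window and not per gene. Such a match describes letters in a window and is not a binding site.

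Transcript levels of the set ran from percentile 12.8 to percentile 99.0 of the genes tested. As CPM (counts scaled to library size with TMM factors) divided by the gene length in kilobases, the mean over 16 mice was highest for Hsp90ab1 with 290 ± 94.2 (SD, n = 16), followed by Hspa8 with 229 ± 48.4. These constitutive HSP90 and HSP70 genes lay at percentiles 99.0 and 98.8, respectively. Hspb1 had 62.2 ± 13.5 and Bag3 had 30.9 ± 13.1 CPM per kilobase. Hsp90aa1 (8.52 ± 2.26), Hsf1 (7.56 ± 1.38) and Hsph1 (6.80 ± 1.77 CPM per kilobase) were neighbours whose values overlapped. Dnajb1 had 2.09 ± 0.407 CPM per kilobase. The stress-inducible HSP70 copies, Hspa1a (0.366 ± 0.169) and Hspa1b (0.344 ± 0.177 CPM per kilobase), came last and lay at percentiles 13.5 and 12.8. Ranges of Hsp90ab1 and Hspa8 overlapped, as did those of Hspa1a and Hspa1b, so the order within these pairs lies within the spread between mice. The lowest value of Hspb1 (46.4) was under the highest of Bag3 (59.3), whereas Dnajb1 (1.65 to 3.05) overlapped none of the other genes. The length used is that of all annotated exons of a gene, so that a level per kilobase is lower for genes with several long isoforms. How fragments that match several genes were counted is not known. Of 52-base windows, 74.4% in Hspa8, 65.9% in Hspa1a, 61.8% in Hspa1b, 58% in Hsp90aa1 and 51.3% in Hspb1 occur in transcripts of another gene. The share was 4.05% for Hsp90ab1, 0.306% for Dnajb1 and 0% for Hsph1, Bag3 and Hsf1. The effect on this order was not tested.

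**Figure D1:**
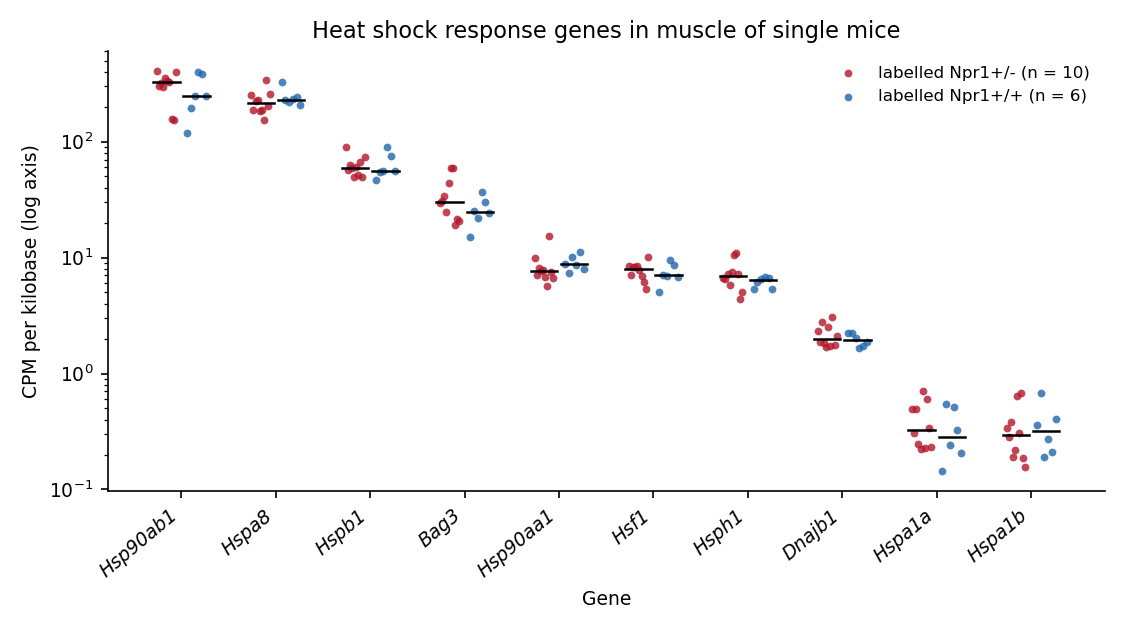
Level of each gene in single mice as CPM per kilobase of gene length, on a log axis, with genes ordered by mean level; each point is 1 mouse (red, labelled Npr1+/-, n = 10; blue, labelled Npr1+/+, n = 6) and the black line is the median of the label. Means run from 290 for Hsp90ab1 to 0.344 for Hspa1b, and the points of both labels overlap for every gene.

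To determine whether the set differed by genotype label, libraries labelled Npr1+/- and Npr1+/+ were compared with edgeR's quasi-likelihood test, correcting for cage and body weight. None of the 10 genes passed (0 of 10 with an adjusted p under 0.05, and 0 of 10 with an unadjusted p under 0.05), and the adjusted p from edgeR with Benjamini-Hochberg adjustment was 1 for each. Over all 14331 genes tested the shares were 0% with adjusted and 1.05% with unadjusted p-values (0.544% higher and 0.509% lower). The values of the 2 labels overlapped for each of the 10 genes, and 0.00698% of all genes had labels that did not overlap. The log2 fold change (Npr1+/- minus Npr1+/+) was negative for 8 of 10 genes, with a median of -0.05, against 51.6% negative and a median of -0.01 over all genes tested. This tally rests on few mice: it was 2 of 10, with a median of 0.06, without replicate 4 labelled Npr1+/+ (48.2% of all genes), and 5 of 10 without replicate 10 labelled Npr1+/- (45.7% of all genes). It was 4 of 10 with the label alone, 3 of 10 with cage and 2 of 10 with weight as the only covariate. Npr1 itself had 13.6 ± 3.87 CPM (SD, n = 10) under the label Npr1+/- and 12.2 ± 1.05 CPM (SD, n = 6) under Npr1+/+. Since Npr1 mRNA was not lower in the former, every direction below is between libraries as labelled. In bulk muscle, fewer cells of a type and less RNA per cell cannot be told apart.

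The inducible HSP70 genes had the fewest counts of the set. Hspa1a (ENSMUSG00000091971, chr17:34969190-34972156, minus strand) encodes the major stress-induced HSP70 and had 11 to 45 counts per mouse. It ranged from 0.657 to 2.11 CPM (median 0.959) in the libraries labelled Npr1+/- and from 0.425 to 1.61 CPM (median 0.839) in those labelled Npr1+/+. The log2 fold change of Hspa1a was -0.04 (SE 0.33, 95% interval -0.74 to 0.67). Hspa1b (ENSMUSG00000090877, chr17:34956436-34959238, minus strand) encodes a near-identical protein and had 7 to 38 counts per mouse. It ranged from 0.441 to 1.90 CPM (median 0.826) and from 0.539 to 1.91 CPM (median 0.889) in the libraries labelled Npr1+/- and Npr1+/+, respectively. The log2 fold change of Hspa1b was -0.03 (SE 0.44, 95% interval -0.97 to 0.91). The labels overlapped for both copies, with 2 Npr1+/- mice above and 2 Npr1+/+ mice below the shared range of Hspa1a, and the intervals hold changes of over 1.5-fold in either direction. Of the 52-base windows of Hspa1a transcripts (the read length), 65.9% also occur in transcripts of another gene, mostly those of Hspa1b, so reads may be split between the copies. With the counts of both added, the sum was 2.10 ± 1.01 CPM (SD, n = 10) and 1.97 ± 0.840 CPM (SD, n = 6), with a log2 fold change of -0.07 (SE 0.34, 95% interval -0.79 to 0.65). A sum does not restore fragments that were left uncounted, if there were any.

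The constitutive HSP70 was abundant, whereas its partners Hsph1 and Dnajb1 had lower levels. Hspa8 (ENSMUSG00000015656, chr9:40800984-40810087, plus strand), which encodes HSC70, the housekeeping HSP70, ranged from 660 to 1454 CPM (median 919) in the libraries labelled Npr1+/- and from 885 to 1390 CPM (median 991.5) in those labelled Npr1+/+. Hspa8 had a log2 fold change of -0.06 (SE 0.17, 95% interval -0.42 to 0.30). The range of the former enclosed that of the latter. Shared windows were also frequent in Hspa8 (74.4%), where the pseudogene Gm15459 carries most of them. That pseudogene had 2382 counts over all mice against 360470 for Hspa8. Counts of Gm26825, which shares 68.5% of the windows of Hspa8, were not analysed here. Windows were likewise shared in Hsp90aa1 (58%, mostly with Gm12346, which had 71 counts against 12392) and in Hspb1 (51.3%, with Hsp25-ps1, which had 250 counts against 22827). How fragments that match several genes were counted is not known. Low counts of these partners therefore cannot show how many fragments a gene of the set gained or lost. Hsph1 (ENSMUSG00000029657, chr5:149614287-149636376, minus strand) encodes HSP110, a nucleotide exchange factor of HSP70. It ranged from 32.0 to 80.0 CPM (median 50.7) and from 38.6 to 49.1 CPM (median 46.3), with a log2 fold change of 0.02 (SE 0.20, 95% interval -0.39 to 0.44). The range of the libraries labelled Npr1+/- enclosed the other, with replicates 6 and 7 highest (76.4 and 80.0 CPM) and replicates 9 and 10 lowest (32.0 and 36.9 CPM). Dnajb1 (ENSMUSG00000005483, chr8:83608193-83612653, plus strand) encodes HSP40, the J-domain protein that delivers clients to HSP70. It ranged from 5.46 to 9.76 CPM (median 6.37) and from 5.29 to 7.19 CPM (median 6.24), with a log2 fold change of 0.22 (SE 0.17, 95% interval -0.14 to 0.59), the largest positive value of the set. The highest 4 values of Dnajb1 were all in libraries labelled Npr1+/-, and the remaining values were mixed.

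Neither HSP90 gene passed the test. Hsp90ab1 (ENSMUSG00000023944, chr17:45567775-45573271, minus strand), the constitutive cytosolic HSP90, ranged from 464 to 1223 CPM (median 973) in the libraries labelled Npr1+/- and from 354 to 1196 CPM (median 739.9) in those labelled Npr1+/+. The mean was higher in the former (916 ± 261 against 792 ± 325 CPM), whereas its log2 fold change after correction for cage and weight was -0.12 (SE 0.27, 95% interval -0.69 to 0.45). Within cages the difference of Hsp90ab1 ran from -0.62 to 1.06 on the log2 CPM scale and was positive in 2 of 4 cages. Hsp90aa1 (ENSMUSG00000021270, chr12:110690605-110702728, minus strand), the inducible cytosolic HSP90, ranged from 22.5 to 59.9 CPM (median 29.8) and from 28.9 to 43.5 CPM (median 34.3). Its log2 fold change was -0.12 (SE 0.19, 95% interval -0.53 to 0.28). Hsp90aa1 was lower in the libraries labelled Npr1+/- in 4 of 4 cages, by -0.32 to -0.10 on the log2 CPM scale, although 1 of them, replicate 8, had the highest value of all 16 mice. These differences are not corrected for weight, and 1 label is a single mouse in cages 676, 677 and 678. The share of all genes with the same sign in every cage was not computed. The log2 fold change of Hsp90aa1 was 0.0033 with weight as the only covariate and 0.031 without replicate 4 labelled Npr1+/+.

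The small heat shock protein, the BAG co-chaperone and the regulator did not pass either. Hspb1 (ENSMUSG00000004951, chr5:135887919-135889563, plus strand) encodes HSP25, which binds unfolding proteins without ATP and guards actin filaments. It ranged from 50.7 to 92.7 CPM (median 61.2) and from 47.8 to 92.7 CPM (median 57.1) in the libraries labelled Npr1+/- and Npr1+/+, respectively. Its log2 fold change was -0.27 (SE 0.15, 95% interval -0.58 to 0.04), the largest negative value of the set, with an unadjusted p of 0.0830. This value came mainly from cage 678, where the within-cage difference was -0.74 on the log2 CPM scale and the Npr1+/+ label is 1 mouse, whereas the other 3 cages gave -0.02 to 0.16. Without that mouse, replicate 4 labelled Npr1+/+, the log2 fold change of Hspb1 was 0.020. Bag3 (ENSMUSG00000030847, chr7:128523616-128546981, plus strand) encodes the scaffold that links HSP70 to HSPB8 and to autophagy. It ranged from 49.3 to 151.8 CPM (median 76.6) and from 38.5 to 93.2 CPM (median 63.0), with a log2 fold change of -0.01 (SE 0.23, 95% interval -0.49 to 0.48). Without covariates, the log2 fold change of Bag3 was 0.43, and with body weight as the only covariate it was 0.15. Hsf1 (ENSMUSG00000022556, chr15:76477422-76500972, plus strand) ranged from 38.1 to 71.2 CPM (median 56.9) and from 36.0 to 67.5 CPM (median 49.99), with a log2 fold change of -0.10 (SE 0.17, 95% interval -0.46 to 0.26). The values of both labels overlapped for all 3 genes, and the 3 highest values of Bag3 (112.3, 150.3 and 151.8 CPM) were in libraries labelled Npr1+/-.

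**Figure D2:**
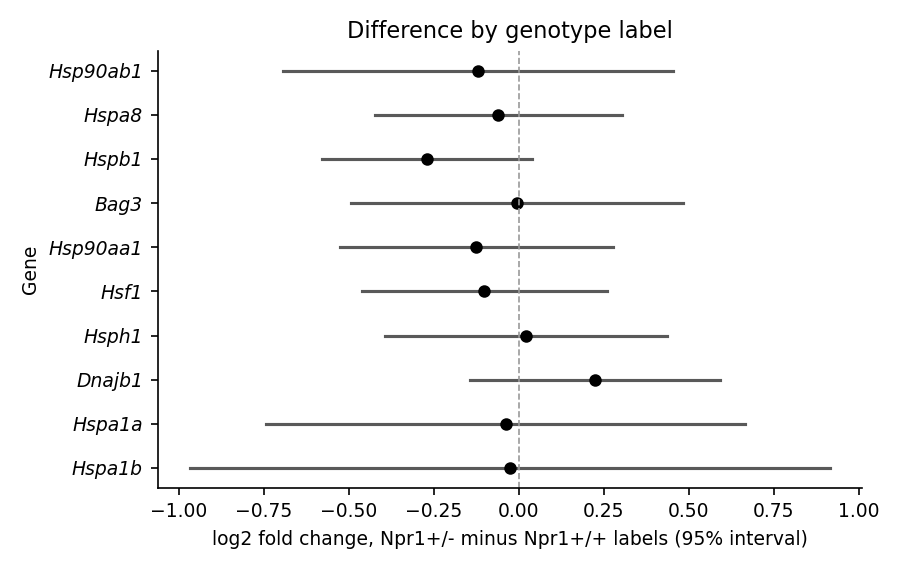
Log2 fold change of each gene between libraries labelled Npr1+/- (n = 10) and Npr1+/+ (n = 6) from the edgeR fit with cage and body weight; points are estimates and lines are 95% intervals. All 10 intervals cross 0, from the narrow ones of Hspb1 (-0.58 to 0.04) and Hspa8 (-0.42 to 0.30) to that of Hspa1b (-0.97 to 0.91).

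The wider chaperone network gave 0 calls as well. Of the lists of chaperone genes, none had a member with an adjusted p under 0.05 by label in the edgeR test (Benjamini-Hochberg over all genes). All 8 tested TRiC/CCT subunits, which fold actin and tubulin, had negative log2 fold changes (median -0.13), with -0.18 (SE 0.14) for Cct3 and -0.16 (SE 0.14) for Tcp1, which had the smallest unadjusted p-values of the list. The same held for 12 of 12 chaperones of the endoplasmic reticulum and the mitochondria (median -0.10), with -0.23 (SE 0.15) for Hsp90b1, the HSP90 of the endoplasmic reticulum, and -0.15 (SE 0.13) for Dnajb11. Values were negative for 11 of 12 cytosolic J-domain co-chaperones (median -0.07; Dnajb2 -0.11, Dnajb5 -0.09), for 14 of 17 HSP90 co-chaperones (median -0.05; Ahsa1, an activator of the HSP90 ATPase, -0.16, and Cdc37, which loads kinases, -0.15) and for 5 of 10 BAG and related factors (median -0.02). None of these genes had an unadjusted p under 0.05. Among 6 other small heat shock proteins, 4 were negative (6 with cage only or with a block on replicate number in place of cage, and 3 to 6 with 1 mouse left out) and 1 had an unadjusted p under 0.05, against 1.05% of all genes. This was Hspb6, at 1288 against 1583 CPM on average (log2 fold change -0.35, SE 0.15, unadjusted p = 0.0339, adjusted p = 1 from edgeR). Hspb7, a cardiac and skeletal muscle member, had -0.29 (SE 0.16). Other HSP70 and HSP110 genes were negative in 3 of 8 cases (Hspa14 -0.11, Hspa1l -0.13), the 3 tested genes for other heat shock factors and their inhibitors were all negative (Hsf4 -0.15, Hsbp1 -0.06), and the 6 partners of BAG3 in filamin clearance were evenly split (Flnc 0.39, SE 0.37; Map1lc3b -0.10, SE 0.21). Counts of signs in these lists are descriptions, and genes of a list are not independent. Without replicate 4 labelled Npr1+/+, 3 of 8 TRiC/CCT subunits, 9 of 12 chaperones of the endoplasmic reticulum and the mitochondria, 7 of 12 J-domain co-chaperones and 9 of 17 HSP90 co-chaperones were negative. The count was also 7 of 12 for J-domain co-chaperones without replicate 9 labelled Npr1+/-, and 9 of 17 for HSP90 co-chaperones without this mouse, without replicate 1 labelled Npr1+/- or without replicate 1 labelled Npr1+/+. With other covariates, the J-domain count was 7 of 12 with the label alone, 9 of 12 with cage only or weight only and 6 of 12 with the block on replicate number. The HSP90 co-chaperone count was 9 of 17 with the label alone, weight only or that block, 11 of 17 with cage only and 10 of 17 with RLE size factors or DESeq2. For BAG and related factors it was 2 of 10 without replicate 4 labelled Npr1+/+ and 3 of 10 with weight only. Other HSP70 and HSP110 genes were negative in 6 of 8 cases without replicate 5 labelled Npr1+/- or without replicate 4 labelled Npr1+/+, and in 5 of 8 without replicate 8 labelled Npr1+/- or without replicate 2 labelled Npr1+/+. Other heat shock factors and their inhibitors were negative in 1 of 3 cases without replicate 6 labelled Npr1+/- or without replicate 4 labelled Npr1+/+, and in 2 of 3 with RLE size factors or DESeq2. Partners of BAG3 were negative in 1 of 6 cases with the label alone, with weight only and without replicate 4 labelled Npr1+/+. The TRiC/CCT count was 7 of 8 under these other covariates, RLE size factors and DESeq2, and that of the endoplasmic reticulum and mitochondria was 9 to 12 of 12.

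Lists that respond to handling or time of day were read beside the set. Of 14 immediate early genes, which rise within minutes of a stimulus, 13 had positive log2 fold changes (median 0.25), 0 passed after adjustment in edgeR and 1 had an unadjusted p under 0.05, Btg2 (0.55, SE 0.21, unadjusted p = 0.0211), against 1.05% of all genes. Without replicate 6 labelled Npr1+/-, 10 of 14 were positive and their median was 0.085. Circadian clock genes were positive in 6 of 14 cases (median -0.01), with 0.66 (SE 0.35) for Per1 and -0.35 (SE 0.43) for Npas2. This count turned with the covariates: it was 12 of 14 with the label alone (median 0.23) and with a block on replicate number in place of cage (median 0.21), 9 of 14 with cage only (median 0.15) and 10 of 14 with weight only (median 0.028). It ranged from 3 to 10 of 14 with 1 mouse left out. Both cold-inducible genes were negative (Cirbp -0.14, Rbm3 -0.13, neither with an unadjusted p under 0.05). Skeletal muscle fibre markers had the highest sums of the marker lists, at 92140 to 149900 CPM in the libraries labelled Npr1+/- and 92390 to 141300 CPM in those labelled Npr1+/+. Summed erythrocyte markers ranged from 88.0 to 509.7 CPM and from 192 to 320 CPM, adipocyte markers from 278 to 1101 CPM and from 455 to 801 CPM, and macrophage markers from 39.6 to 142.1 CPM and from 63.9 to 116.6 CPM. By label, 5 of 5 erythrocyte markers were positive (median log2 fold change 0.34), 2 of them with an unadjusted p under 0.05: Hbb-bt had 0.79 (SE 0.32, unadjusted p = 0.0265) and Alas2 0.54 (SE 0.25, unadjusted p = 0.0450). The 1 tested of 4 B cell markers, Cd79a, was negative (-1.18, SE 0.34, unadjusted p = 0.00334) at a mean of 0.474 CPM, and 0 genes of the other marker lists had an unadjusted p under 0.05 by label. None of these passed after adjustment (adjusted p = 1 in edgeR for each). The part of these lists in the values of the set was not tested.

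Cage, a term of the same fit, gave 0 calls among the 10 genes with an adjusted p under 0.05 in edgeR, against 0.0279% of all genes. With unadjusted p-values under 0.05, 2 of 10 genes, Hspb1 and Hspa1a, were found, against 7.36% of all genes. This count depended on single mice. In edgeR, Hspa1a had an unadjusted p of 0.0994 without replicate 1 and 0.0540 without replicate 2 labelled Npr1+/+. Without replicate 3 labelled Npr1+/-, Hsph1 (0.0158) and Bag3 (0.000257) were also under 0.05. Hspb1 stayed under 0.05 with any mouse left out. Hspb1 had 78.6 ± 9.98 CPM (SD, n = 4) in cage 676, 63.2 ± 16.96 CPM (SD, n = 5) in cage 678, 59.9 ± 4.17 CPM (SD, n = 4) in cage 675 and 52.1 ± 4.62 CPM (SD, n = 3) in cage 677. The unadjusted p of Hspb1 for cage was 0.0085 (adjusted p = 0.656 in edgeR). Values of cage 677 (47.8 to 57.0 CPM) and cage 676 (69.3 to 92.7 CPM) did not overlap. Hspa1a had 1.48 ± 0.575 CPM (SD, n = 4) in cage 675 and 0.564 ± 0.123 CPM (SD, n = 3) in cage 677, with an unadjusted p of 0.0236 and an adjusted p of 0.656 in edgeR. Each mouse of cage 677 was below each mouse of cage 675 for this gene. For both genes the cages compared are those with the highest and the lowest mean. The share of all genes with such a separation was not computed. By the same measure, 7 of 14 immediate early genes (Nr4a1 with the smallest unadjusted p, 0.00222) and 3 of 14 clock genes (Dbp, 6.99e-05) had unadjusted p-values under 0.05 by cage, and none passed after adjustment. So did 4 of 11 muscle fibre, 2 of 5 endothelial and 2 of 4 Schwann cell markers, again with none after adjustment. For adipocyte and satellite cell markers it was 0 of 5 and 0 of 3, and 1 for each other marker list. Their part in the cage values of the set was not tested.

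Body weight gave 0 calls among the 10 genes after adjustment in edgeR as well, against 0% of all genes, and 3 of 10 with an unadjusted p under 0.05. All 3 had negative slopes on weight, a direction with an unadjusted p under 0.05 in 12.3% of all genes (4.74% had the opposite direction). Bag3 had the smallest p of the set, rank 53 of 14331 genes. It was at 150.3 CPM in the lightest mouse (36.5 g, replicate 7 labelled Npr1+/-) and at 55.8 CPM in the heaviest (54 g, replicate 3 labelled Npr1+/+), with a slope of -0.12 log2 units per gram (SE 0.03, unadjusted p = 0.00207, adjusted p = 0.246 in edgeR). Replicate 6 labelled Npr1+/- did not follow this order, with 151.8 CPM at 46.2 g. The slopes of Hsp90ab1 and Hsph1 were -0.08 (SE 0.04) and -0.06 (SE 0.03) log2 units per gram, with unadjusted p-values of 0.0456 and 0.0451. Both p-values depended on single mice. In edgeR they were 0.0755 and 0.0994 without replicate 9 labelled Npr1+/-, and 0.168 and 0.0691 without replicate 4 labelled Npr1+/+. Without replicate 3 labelled Npr1+/- they were 0.0292 and 0.00289. The unadjusted p of Bag3 was at most 0.00967 with any mouse left out. The 7 other genes had slopes of -0.06 to 0.03 log2 units per gram. Mice labelled Npr1+/- weighed 43.6 ± 3.79 g (SD, n = 10) and those labelled Npr1+/+ 47.4 ± 4.69 g (SD, n = 6), so that label and weight are partly confounded in every value of Bag3.

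One mouse decides whether weight calls are made. Without replicate 3 labelled Npr1+/- (40.1 g), Bag3 passed with -0.17 log2 units per gram (adjusted p = 0.00429 in edgeR) and Hsph1 with -0.09 (adjusted p = 0.0239), and Bag3 passed by cage (adjusted p = 0.0211). However, 22.1% of all genes then passed by weight and 6.08% by cage, so that 2 of 10 genes is near the background of that fit. With any other mouse left out, 0 of the 10 genes passed by cage or weight. Over all 16 mice, 4 of 6 partners of BAG3 had negative slopes, 2 of them with an unadjusted p under 0.05: Synpo2 had -0.12 (SE 0.04, unadjusted p = 0.00711) and Flnc, which encodes the filamin of muscle, -0.13 (SE 0.05, unadjusted p = 0.0223) log2 units per gram. Hspb8, the small heat shock protein bound by BAG3, had a positive slope of 0.058 (unadjusted p = 0.0968) and the ubiquitin ligase Stub1 had one near 0. The same sign was found for 3 of 11 muscle fibre markers with an unadjusted p under 0.05, among them the fast myosins Myh1 (-0.23, SE 0.06) and Myh4 (-0.21, SE 0.06 log2 units per gram), whereas the erythrocyte markers Hbb-bt (0.13, SE 0.04) and Alas2 (0.10, SE 0.03) had positive slopes. Other cell type markers also had slopes with an unadjusted p under 0.05, against 17.1% of all genes. They were negative for 2 of 5 endothelial markers (Kdr -0.13, SE 0.05; Cdh5 -0.09, SE 0.04) and 2 of 3 satellite cell markers (Cdh15 -0.10, SE 0.03; Pax7 -0.10, SE 0.04, whereas Myf5 had 0.070, SE 0.03), and positive for 2 of 6 macrophage markers (Adgre1 0.090, SE 0.04; Lyz2 0.088, SE 0.04) and for 1 of 5 adipocyte markers and 1 of 6 fibroblast and tendon markers. None of these passed after adjustment, and their part in the slope of Bag3 was not tested.

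To describe how the genes of the set vary from mouse to mouse, all 45 pairs were correlated over the 16 mice on the log2 CPM scale, with 100000 permutations and Benjamini-Hochberg adjustment over all genes tested. Pearson r was above 0 for 31 pairs and below 0 for 14, with a median of 0.193. With both genes in turn as the reference, 3 pairs passed, and 12 had an unadjusted p under 0.05. The closest pair was the factor Hsf1 and the HSP90 gene Hsp90ab1 (r = 0.91, rho = 0.89, permutation p = 1e-05, the smallest the permutations can give, adjusted p = 0.00149; for rho, permutation p = 4e-05 and adjusted p = 0.00637). Replicate 1 labelled Npr1+/+ had the lowest value of both genes (354 and 36.0 CPM), followed by replicates 9 and 8 labelled Npr1+/-, at 464 and 474 CPM of Hsp90ab1 and 38.1 and 43.8 CPM of Hsf1. These 3 mice came from 3 cages. Without the 2 mice farthest from the median of Hsp90ab1, r was 0.82, and with each mouse left out it stayed between 0.88 and 0.94. For this pair, r was 0.90 in residuals after label, cage and weight. No cage holds 6 mice, so no correlation was computed within a cage.

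Bag3 and Hsph1, which work on the same HSP70 cycle, formed the second pair (r = 0.83, permutation p = 0.00011, adjusted p = 0.00101; rho = 0.74, permutation p = 0.00163, adjusted p = 0.0247). Replicates 6 and 7 labelled Npr1+/- were highest in both genes. Without the 2 mice farthest from the median of Hsph1, which are these, r was 0.61. In the third pair Bag3 and Hspa8 went in opposite directions (r = -0.77, permutation p = 0.00062, adjusted p = 0.0120; rho = -0.65, permutation p = 0.0077, adjusted p = 0.0466), and r was -0.67 without the 2 mice farthest from the median of Hspa8. In residuals after label, cage and weight, r was 0.76 for Bag3 and Hsph1 and -0.70 for Bag3 and Hspa8, and a further pair passed, Hspa8 with its J-domain partner Dnajb1 (r = 0.82, permutation p = 1e-05, adjusted p = 0.0116, against r = 0.53 without this correction). Hspa1a and Hspa1b had r = 0.58 (permutation p = 0.0196, adjusted p = 1; rho = 0.39, permutation p = 0.139).

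**Figure D3:**
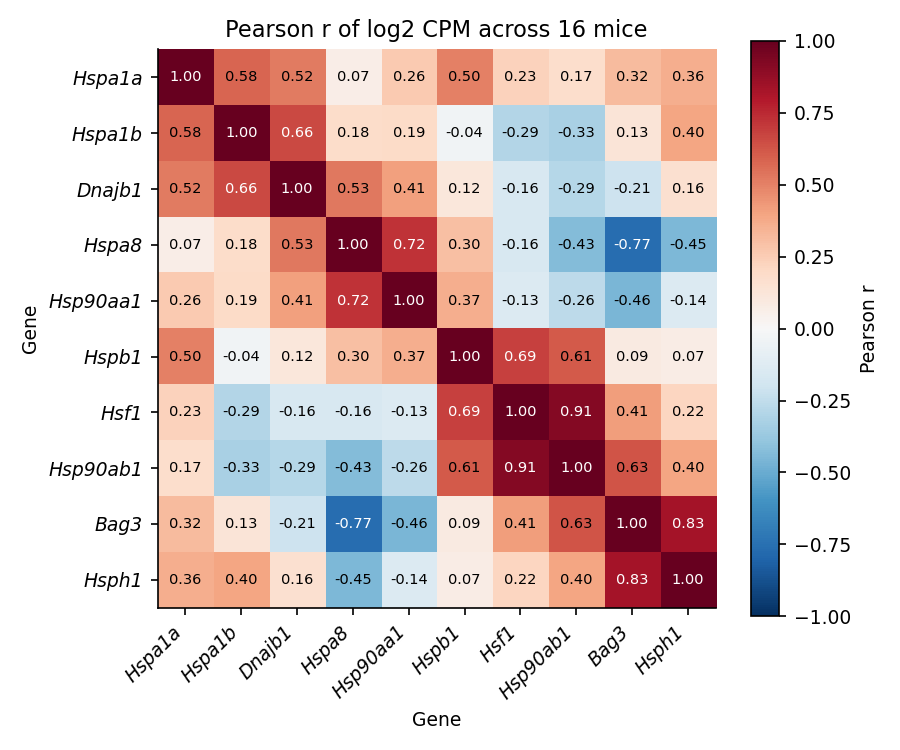
Pearson r of log2 CPM over 16 mice for all 45 pairs of the set; red is positive, blue is negative, and each cell prints r. The darkest cells off the diagonal are Hsf1 with Hsp90ab1 (0.91), Bag3 with Hsph1 (0.83) and Bag3 with Hspa8 (-0.77).

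**Figure D4:**
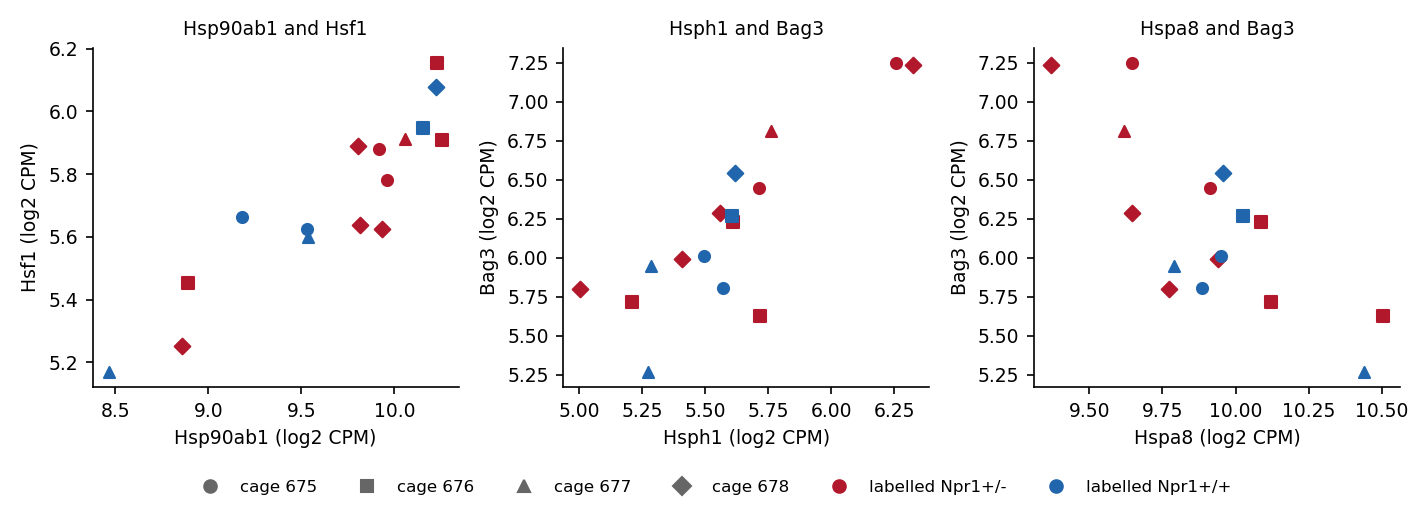
The 3 pairs that passed, with log2 CPM on both axes and 1 point per mouse; colour gives the genotype label and shape the cage. Hsp90ab1 and Hsf1 rise together over all cages and both labels, and 2 mice at the upper right stand apart for Hsph1 and Bag3.

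These correlations were set against those with all other genes, since many genes shared them. Hsph1 was correlated (adjusted p under 0.05) with 47.8% of the 14330 other genes, Bag3 with 44.9%, Hspa8 with 21.3%, Hsp90ab1 with 14.5% and Hsf1 with 6.69%. For Hspa1a, Hspa1b, Hsp90aa1, Dnajb1 and Hspb1 the share was 0%. The genes most like Bag3 were Gys1, the muscle glycogen synthase (r = 0.99, rho = 0.98), Syvn1 (r = 0.99, rho = 0.99) and Dlgap4 (r = 0.98, rho = 0.96). For Hsph1 they were Midn, Fam222b and Fam168b (r = 0.95, 0.94 and 0.94), and for Hspa8 Bnip2, Ccdc181 and Sar1a (r = 0.94, 0.90 and 0.89). For Hsp90ab1 they were Eloa, the translation elongation factor Eef2 and Sema4d (r = 0.98 each), and for Hsf1 Rai2, Gpat4 and Setd3 (r = 0.96, 0.95 and 0.95). All of these had permutation p-values of 1e-05, or 3e-05 for Sar1a, and adjusted p-values of at most 0.00367. For the 5 other genes of the set the closest genes did not pass: Ppp1r18, Glmp and Phf13 for Hspa1a, Ppp1r12c, Vtn and D230025D16Rik for Hspa1b, Siah1a, Ifrd1 and Klhl9 for Hsp90aa1, Mob3a, Id1 and P2rx6 for Dnajb1, and Tdrp, Adi1 and Ercc1 for Hspb1.

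A property of whole libraries moved with some of these genes. For each mouse, the deviation of 14318 genes from their mean was regressed on GC content and transcript length, which gives a GC slope and a length slope per library. Bag3 followed both slopes (r = 0.89 and 0.86), as did Hsph1 (r = 0.72 and 0.89), and Hspa8 ran against them (r = -0.63 and -0.72). These are descriptions over 16 mice, with genes of the same library on both sides. After removal of both slopes, r was 0.15 for Bag3 and Hsph1 and -0.39 for Bag3 and Hspa8, neither of which passed. The number of other genes correlated with a gene of the set also moved: from 6846 to 0 for Hsph1, from 6432 to 7 for Bag3 and from 3056 to 242 for Hspa8, but from 959 to 2021 for Hsf1, from 2078 to 2766 for Hsp90ab1 and from 0 to 502 for Hspa1b. For the 4 other genes it was at most 13 after removal. For Hsf1, r was 0.54 with the GC and 0.13 with the length slope, and for Hsp90ab1 it was 0.69 and 0.35. The r between Hsf1 and Hsp90ab1 was 0.89 after removal of both slopes (permutation p = 2e-05, adjusted p = 0.00200). These permutations also took no account of the fitted slopes, so this p-value and the gene counts after removal are approximate. The length slope ran from -0.27 to 0.43 log2 units per SD of log2 length and was highest in replicates 7 and 6 labelled Npr1+/-, the mice with the highest Bag3. Between length slope and body weight r was -0.44 (rho = -0.38, permutation p = 0.0914 and 0.150, adjusted over 2 slopes 0.0914 and 0.150), and r was -0.32 without the 2 mice farthest from the median weight. For the GC slope, r with body weight was -0.46 (rho = -0.49, permutation p = 0.0692 and 0.0585, adjusted over 2 slopes 0.0914 and 0.117), and -0.22 without those 2 mice.

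**Figure D5:**
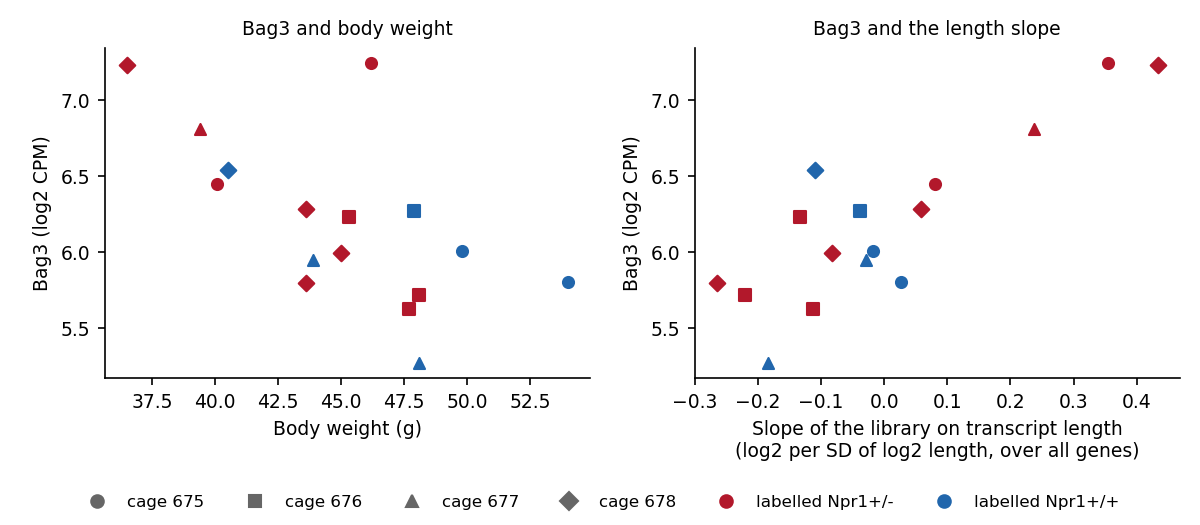
Bag3 as log2 CPM against body weight in grams (left) and against the length slope of the library (right), 1 point per mouse, with colour for the genotype label and shape for the cage. Bag3 is high in light mice except for 1 mouse of 46.2 g, and that mouse lies with the other high ones on the right, where r is 0.86.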

How the data were processed

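Bulk mRNA of skeletal muscle of 16 mice was sequenced as pairs of 52-base reads. The authors mapped reads to GRCm38 with STAR 2.7.2b, counted fragments with both ends aligned on GENCODE M24 genes (featureCounts) and deposited these raw counts, not normalized. The processing notes name featureCounts 1.6.4. How multi-mapping fragments were treated is not given in the sources used here. The paper's methods and the labels name different library kits. The deposited gene length, another column of the table, was used for levels per kilobase. Library totals were 15832624 to 59682677 counts (median 20409174) for the label Npr1+/- and 15273472 to 29630298 (median 24015244) for Npr1+/+, and totals cover counting error only.

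Of 55471 identifiers, 55144 were paired with symbols through the GENCODE M21 annotation, and GC content and transcript length were taken from the same release. In edgeR 4.0.16 (R 4.3.3), genes were kept by filterByExpr on the label and TMM factors were computed. The quasi-likelihood fit (robust and legacy settings on) held label, cage and body weight, and glmQLFTest gave p-values, with a threshold of 0.05 after Benjamini-Hochberg adjustment. Correlations used log2 CPM with a prior count of 1 and two-sided permutation tests (numpy 2.4.6). Steps were tested on simulated data.

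The genes of the set and all lists were chosen with earlier results of these data known. The genes named are the 10 of the set, the 3 most similar genes of each, and, of each pathway list, genes among the 2 with the smallest p-values by label, cage or weight. Genes named from the marker lists, and the weight slopes of Hspb8 and Stub1, were chosen after their values were seen. Alternatives were a block on replicate number, fewer covariates, other scaling, DESeq2 1.42.0, limma-voom (limma 3.58.1), the newer edgeR method, other filters, thresholds and leaving out each mouse. Each label is of separate animals.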

Additional observations from a re-analysis of the deposited data

Results flagged for a closer look

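In the libraries labelled Npr1+/+, Hspa8 of replicate 1 stood apart from the other 5, at 10.44 log2 CPM against 10.03 for the next mouse, a gap of 0.635 of the range of the group. Among the 10 genes and both labels, 20 groups were examined in this way, and chance alone marks about 1 in 20. The same mouse had the lowest values of Hsp90ab1, Hsf1, Bag3, Hspb1 and Hspa1a of all 16.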

How the results depend on the processing

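Under every alternative run, 0 genes of the set passed by genotype label, whichever covariates, scaling, tool, filter or mouse was changed. With at least 10 counts in every library 9 of the 10 were tested, without Hspa1b. By cage and by body weight, the counts rose to 2 and 3 with unadjusted p-values. With adjusted p-values they ranged from 0 to 1 and from 0 to 2 with 1 mouse left out, and stayed at 0 otherwise. The unadjusted counts of 2 and 3 also changed with single mice left out, as given above for Hspa1a, Hsph1 and Hsp90ab1. Over all genes, edgeR called 0 by label, 4 by cage and 0 by weight, against 6, 78 and 26 with DESeq2 and 8, 23 and 0 with no filter. The sum of Hspa1a and Hspa1b (-0.07) turned to 0.099 without covariates, 0.063 with cage only and 0.19 with weight only, and ranged from -0.31 to 0.23 with 1 mouse left out. Mice that share a number across labels are not the same animal, and the main fit did not pair them. Their deviations correlated at 0.0719 on average over 6 pairs (0.0312 to 0.162), against -0.0074 over 54 pairs with different numbers. Whether the numbers group mice was not tested. When the block on replicate number replaced cage, 0 genes of the set passed, and log2 fold changes that turned were 0.062 (sum of Hspa1a and Hspa1b), 0.33 (Hspa1a), 0.38 (Hsp90ab1), 0.45 (Bag3) and 0.12 (Hsf1).

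Without covariates, Hspa1a (0.26), Hsp90ab1 (0.21), Bag3 (0.43) and Hsf1 (0.062) turned positive. With cage only, Hspa1a (0.16), Hspa1b (0.059), Hsp90ab1 (0.16), Bag3 (0.41) and Hsf1 (0.025) did. With weight only, Hspa1a (0.35), Hspa1b (0.047), Hsp90aa1 (0.0033), Hsp90ab1 (0.11), Bag3 (0.15) and Hsf1 (0.033) did. Bag3 was 0.0061 with RLE size factors, 0.0059 with DESeq2 and 0.0061 with no filter, and Hspa1a was 0.0232 with limma-voom. With 1 mouse left out, log2 fold changes ranged from -0.20 to 0.45 (Hspa1a), -0.37 to 0.20 (Hspa1b), -0.18 to 0.13 (Hspa8), -0.094 to 0.12 (Hsph1), -0.24 to 0.031 (Hsp90aa1), -0.25 to 0.081 (Hsp90ab1), 0.10 to 0.31 (Dnajb1), -0.37 to 0.020 (Hspb1), -0.21 to 0.20 (Bag3) and -0.19 to 0.093 (Hsf1). The cause of these turns was not tested.

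Of the pairs, 3 to 4 passed with 1 mouse left out, 12 with unadjusted p-values, 5 with at least 1 gene as the reference and 1 after removal of the GC and length slopes, the last 2 chosen after the data were seen, as were the recounts of signs in the lists. Counts of 7 to 45 per mouse limit Hspa1a and Hspa1b.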
